A study of Macaca mulatta with 39 samples.

Results

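TA31 is a culture of fibroblasts grown out of a teratoma that the male rhesus macaque embryonic stem cell (ESC) line 3106 formed in an immune-deficient mouse. It was set against its sisters TB31, TC31, TD31 and TE31, the cultures from the other teratomas of the same line. TA31 holds 3 of the 39 arrays of the series, labelled TA31a, TA31b and TA31c, and the sisters hold 11 arrays once the array labelled TB31c is left out. The arrays were grouped by their labels, except that TB31c was left out for its measured values, given below. The other sources were 3 teratoma fibroblast cultures of the female ESC line 3806 (TA38, TB38, TC38), the lines themselves (C3106 and C3806), and 3 cultures of skin fibroblasts from the monkeys that were the lines' parents (M032, M088, M106p1). No treatment or genetic change is named for any of them. Arrays of a source are described as biological triplicates, with nothing to say that they were grown separately. TA31 is 1 culture from 1 teratoma of 1 line, so the spread between its arrays says nothing about how another TA31-like teratoma would vary.

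A teratoma is a tumour in which pluripotent cells form a mixture of tissues, among them nerve, muscle and cartilage, and a culture grown out of one can carry whatever dividing cells adhere and spread. SOX2 is a transcription factor of pluripotent cells that neural progenitors keep, and PAX6 is a transcription factor of the developing forebrain, eye and spinal cord that pluripotent cells lack. In bulk RNA from a culture, fewer cells of a type and less RNA per cell cannot be told apart.

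The label of TA31 was checked against defining genes and against the other line. TA31 had fibroblast levels of COL1A1 (log2 signal 13.02, sister means 12.81 to 13.35), LUM (12.85, sister means 12.26 to 12.86) and VIM (13.60, sister means 13.54 to 13.62), while DCN, a collagen-binding proteoglycan, lay at 12.37 below the sister means of 12.76 to 13.01. The ESC genes POU5F1 (4.71 in TA31, 12.93 in C3106) and EPCAM (2.76 in TA31, 10.97 in C3106) were at the bottom of the signal range. For all 7 probe sets that separated the ESC lines and their other teratoma cultures without overlap, TA31 lay on the 3106 side of a midpoint. RERE, for example, had 10.78 in TA31 against 4.24 to 4.41 in the 3806 cultures. For RIT2, the least clear of them, the TA31 level of 7.01 lay between the 3106 sisters (5.18 to 6.15) and the 3806 cultures (8.87 to 9.55), next to the 7.13 of C3806. The RIT2 midpoint of 7.38 lay above C3806 itself, so RIT2 does not clearly place TA31. The array labelled TB31c had a correlation over genes of 0.999 with a skin array, M106p1b, and of at most 0.953 with the other arrays of its own culture. The arrays labelled M106p1f and C3806c also went against their labels and were left out wherever other sources enter.

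A gene was called when TA31 differed from every sister in the same direction, with a log2 difference of at least 1 and a limma adjusted p under 0.05 in each of the 4 comparisons. Of 14132 genes tested, 33 were higher in TA31 than in every sister, which is 0.234%, and 7 were lower, which is 0.0495%. The genes higher in TA31 included the neural progenitor factors SOX2 and PAX6, the adhesion molecule PCDH8, the collagenase MMP13 and the chemokine CCL2. Those lower in TA31 included the muscle proteins KLHL41 and SMPX and the hypoxia factor EPAS1. The mean of TA31 lay above all 4 sister means for 1761 genes (12.5%) and below them for 2191 (15.5%), by at least 1 for 33 and 7 of them. All 3 TA31 arrays lay above all 11 sister arrays for 317 genes (2.24%) and below them for 186 (1.32%). By the same rule each sister against the other 4 cultures gave 26 higher and 11 lower genes for TB31, 22 and 5 for TC31, 53 and 52 for TD31, and 146 and 152 for TE31. The number of called genes in TA31 is thus within the range of its sisters.

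**Figure D1:**
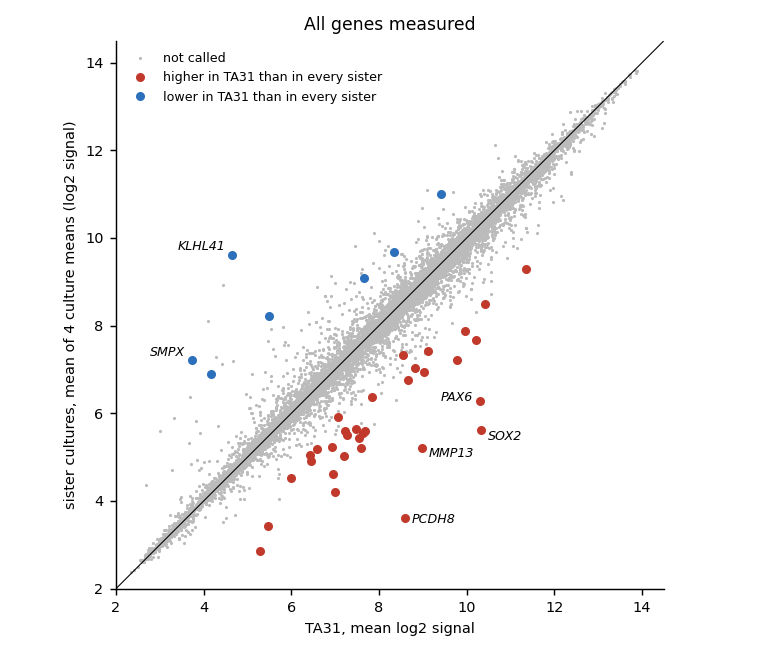
Mean log2 signal of each of the 14132 genes in TA31 (x axis) and in the sister cultures, as the mean of 4 culture means (y axis). The diagonal marks equal levels; red points are the 33 genes higher in TA31 than in every sister and blue points the 7 lower ones.

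PCDH8, a protocadherin that mediates adhesion between cells and is known from early mesoderm and from synapses, differed most (chromosome 17). Its log2 signal was 8.47, 8.88 and 8.43 in the TA31 arrays, against a lowest value of 3.48, a median of 3.56 and a highest value of 3.80 over the 11 sister arrays. Every sister array was near the bottom of the signal range and the groups lay far apart. The mean of TA31 was 4.96 log2 units above its nearest sister, TC31 (SE 0.11, limma adjusted p = 8.65e-13). CDH10, a classical cadherin of the brain (chromosome 6), had 9.04, 9.06 and 8.99 in TA31, against 6.37 (lowest), 6.68 (median) and 7.63 (highest) in the sister arrays. It was 1.46 above TC31 (SE 0.09, limma adjusted p = 1.40e-08). These were the only called genes among 31 measured cadherins and protocadherins, where 0.234% of all genes were called higher. The median difference of the 31 from the sister mean was 0.03, against −0.015 over all genes. Another protocadherin, PCDH20, went the other way against 3 sisters, with 6.75, 6.93 and 6.60 in TA31 and a difference of −3.41 from TD31 (limma adjusted p = 8.38e-12), but it was 0.74 above TB31.

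SOX2 (chromosome 2) had a log2 signal of 10.19, 10.67 and 10.15 in TA31. The TC31 arrays came next with 7.87, 8.09 and 7.73. Those of TB31, TD31 and TE31 ran from 4.56 to 5.39. TA31 was above every sister array, and TC31 stood clear of the other sisters. The difference was 2.44 from TC31 (SE 0.18, limma adjusted p = 1.72e-07) and 5.31 to 5.55 from the others. PAX6 (chromosome 14) ordered the cultures in a like way at the top, with 10.32, 10.32 and 10.25 in TA31 and 8.16, 8.53 and 7.90 in TC31. TE31 followed with 6.39, 6.52 and 6.19, and the TB31 and TD31 arrays ran from 5.03 to 5.60. The difference was 2.10 from TC31 (SE 0.15, limma adjusted p = 1.55e-07). A second PAX6 probe set gave 1.34 above the nearest sister, while the other SOX2 probe sets gave 0.51 and 0.21.

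**Figure D2:**
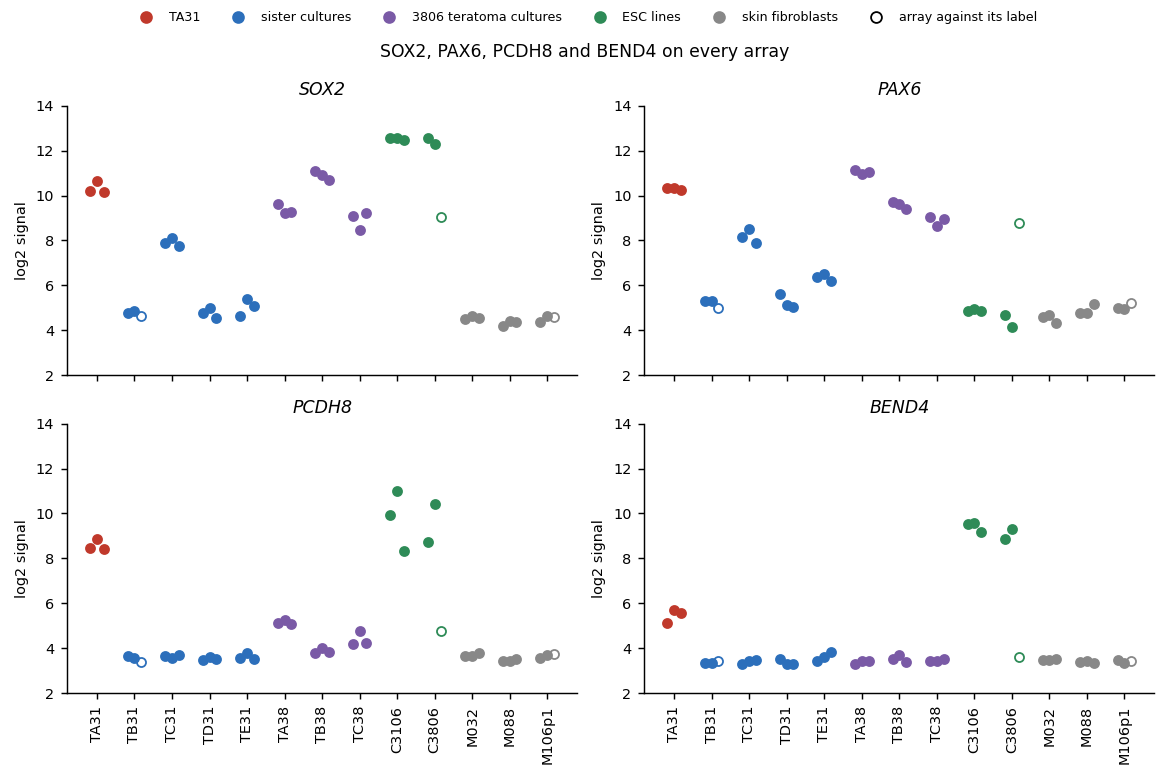
Log2 signal of SOX2, PAX6, PCDH8 and BEND4 on every array (y axis), by source (x axis), with TA31 at the left in red, its sisters in blue, the 3806 teratoma cultures in purple, the ESC lines in green and skin fibroblasts in grey. Open circles are the 3 arrays that went against their labels; in PCDH8 and BEND4 TA31 stands above all other fibroblast cultures, while SOX2 and PAX6 are also high in the 3806 cultures.

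Beside SOX2 and PAX6, the list of 22 measured neural progenitor and neural plate genes had no other member called against every sister. At an unadjusted p under 0.05 against every sister, whatever the size, 6 of the 22 were higher in TA31 and 1 lower. Over all 14132 genes, 244 (1.73%) were higher and 125 (0.885%) lower. The 6 include SOX2 and PAX6, which were already called, so the count is not separate from them. EMX2, a homeobox factor of the developing cortex, was 0.43 to 2.66 above the sisters (largest limma adjusted p = 0.0111), and DACH1, a nuclear factor of eye and limb development, 0.49 to 1.00 above them (largest limma adjusted p = 0.00535), which is under the limit in size for part of the sisters. EMX2 and DACH1 were chosen after their values were seen. The list's mean signal was 7.93 to 8.01 in the TA31 arrays, against 7.60 to 7.61 in TC31 and 7.08 to 7.42 in the other sisters. SOX2 and PAX6 are part of that mean, and the median difference of the list from the sister mean was −0.006. PROM1, a membrane protein of progenitor cells, was higher in TA31 than in TB31, TC31 and TD31 (2.40 to 3.11 higher) but had 7.59, 8.19 and 7.87 in TA31 and 7.92, 7.69 and 7.48 in TE31. ZIC2, a zinc-finger factor of the neural plate, had 9.98, 9.70 and 9.87 in TA31, against 4.46, 4.52 and 4.19 in TE31. In the other 3 sisters ZIC2 was at or above the level of every TA31 array, with −1.13 from TD31 (limma adjusted p = 1.32e-05). Among 14 neuron genes and 11 glia genes none was called against every sister; by the same unadjusted count 1 neuron gene was higher and 0 lower, and 0 glia genes were higher or lower, against the 1.73% and 0.885% over all genes. The mean signal of the neuron list was 6.55 to 6.56 in TA31 and 6.30 to 6.84 in the sisters, and that of the glia list was 7.18 to 7.31 in TA31 and 7.02 to 7.28 in the sisters. What part a neural cell population has in the SOX2 and PAX6 values was not tested.

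Further transcription factors were higher in TA31 than in every sister. BEND4, a member of the BEN domain family of DNA-binding proteins (chromosome 5), had 5.10, 5.71 and 5.58 in TA31, against 3.28 (lowest), 3.42 (median) and 3.84 (highest) in the sister arrays. No TA31 array overlapped the sisters, though all of these levels are low. BEND4 was 1.84 above TE31 (SE 0.14, limma adjusted p = 1.77e-07). It was the only called gene of 4 measured BEN domain genes, where 0.234% of all genes were called higher. NFE2L3, a stress-response factor of the NRF family (chromosome 3), had 7.02, 6.88 and 7.10 in TA31, against 5.21, 5.28 and 5.05 in TC31 and 3.53 to 4.33 in the other sisters. TC31 again came nearest, at 1.82 below TA31 (SE 0.10, limma adjusted p = 5.24e-09), and a second probe set gave 2.05. MECOM, a zinc-finger factor known from blood stem cells (chromosome 2), had 7.43, 7.76 and 7.44 in TA31, against 5.07 (lowest), 5.42 (median) and 6.11 (highest) in the sister arrays.

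DLX1, a homeobox factor of forebrain interneurons and the jaw (chromosome 12), had 7.32, 7.88 and 7.70 in TA31, against 5.12 (lowest), 5.42 (median) and 6.16 (highest) in the sister arrays. Its difference from the nearest sister, TC31, was 1.54 (SE 0.12, limma adjusted p = 2.53e-07), and its second probe set gave 0.12. MEIS2, a homeobox partner of HOX and PAX proteins (chromosome 7), had 10.41, 10.31 and 10.53 in TA31. The nearest sister was TB31 at 9.42 and 9.40, and the sister arrays reached down to 6.99 in TD31. MEIS2 was just inside the limit at 1.01 above TB31, and at 0.951 without TA31c or 0.999 without TB31b it was not called. DLX1 and MEIS2 were the called genes among 39 measured limb and mesenchyme position genes, where 0.234% of all genes were called higher. At an unadjusted p under 0.05 against every sister, whatever the size, 6 of the 39 were higher and 1 lower. Over all genes 1.73% were higher and 0.885% lower by that count, and the 6 include DLX1 and MEIS2. DMRTA2, a factor of cortical progenitors (chromosome 1), had 7.93, 7.01 and 7.50 in TA31, against 5.36 (lowest), 5.58 (median) and 6.04 (highest) in the sister arrays, but its second probe set gave −0.08 from the nearest sister. The SD of DMRTA2 over the TA31 arrays, 0.459, was the highest among the 33 genes, and with the array labelled TB31c (8.06) kept the gene was no longer called.

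**Figure D3:**
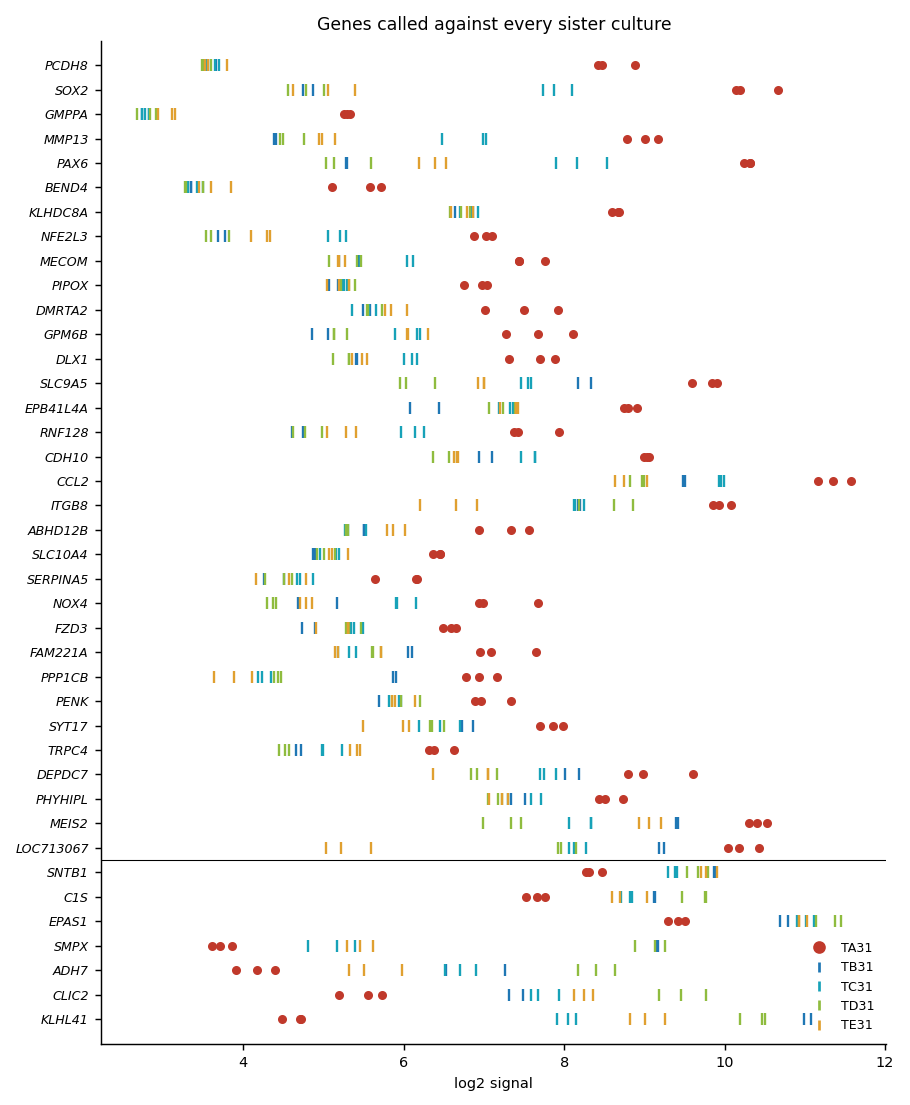
Log2 signal (x axis) of the 40 called genes (y axis) on each array, with TA31 as red dots and the sister arrays as ticks coloured by culture. Genes above the line are higher in TA31 and those under it lower, ordered by the difference from the nearest sister, which runs between 4.96 for PCDH8 and −3.40 for KLHL41.

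Secreted and pericellular proteins formed another group. MMP13, a collagenase of remodelling cartilage and bone (chromosome 14), had 9.01, 9.17 and 8.79 in TA31, against 6.99, 7.02 and 6.48 in TC31 and 4.38 to 5.15 in the other sisters. TA31 was clear of TC31 by 2.16 (SE 0.14, limma adjusted p = 3.16e-08). CCL2, a chemokine that draws monocytes (chromosome 16), had 11.17, 11.57 and 11.35 in TA31, against 8.63 (lowest) and 9.03 (median) in the sister arrays and a mean of 9.96 in TC31, the highest sister. It was 1.40 above TC31 (SE 0.11, limma adjusted p = 3.17e-07). CCL2 was the only called gene of 19 cytokines and chemokines and of 16 senescence genes, lists that share it. Over all genes 0.234% were called higher. PENK, the precursor of the enkephalin opioid peptides, and SERPINA5, a protease inhibitor, were 1.06 and 1.24 above the nearest sister. The second PENK probe set gave 0.27 and the second SERPINA5 probe set −0.35.

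At the cell surface, GPM6B, a membrane proteolipid of neurons and oligodendrocytes (chromosome X), had 7.27, 8.12 and 7.67 in TA31. The TC31 and TE31 arrays lay between 5.89 and 6.30 and those of TB31 and TD31 between 4.86 and 5.29. It was 1.56 above TE31 (SE 0.16, limma adjusted p = 4.11e-06), and its 5 other probe sets lay 0.60 to 1.65 above the nearest sister. SLC9A5, a sodium-proton exchanger of the brain (chromosome 20), had 9.60, 9.90 and 9.85 in TA31, against 8.18 and 8.33 in TB31 and 5.95 to 7.59 in the other sisters. Its second probe set gave −0.09 from the nearest sister. FZD3, a WNT receptor of axon guidance (chromosome 8), had 6.65, 6.49 and 6.58 in TA31, against 4.73 (lowest), 5.30 (median) and 5.49 (highest) in the sister arrays. It was the only called gene of 46 WNT signalling genes, where 0.234% of all genes were called higher. The other FZD3 probe sets gave 0.35 and −0.30 from the highest sister. ITGB8, an integrin subunit that releases active TGF-beta, TRPC4, a cation channel, and SLC10A4, a carrier of synaptic vesicles, lay 1.39, 1.04 and 1.26 above the nearest sister, but ITGB8 gave −0.31 on its second probe set and was not called with the spread of 36 arrays of all sources (limma adjusted p = 0.120 against TB31 and 0.0939 against TD31).

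Enzymes and other cellular proteins made up the rest. GMPPA, which regulates the making of GDP-mannose for glycosylation (chromosome 12), had 5.29, 5.33 and 5.25 in TA31, against 2.67 (lowest), 2.83 (median) and 3.15 (highest) in the sister arrays. The sister signals were near the lowest value of the table, 2.11, and the difference from the nearest sister, TE31, was 2.22 (SE 0.08, limma adjusted p = 6.55e-11). GMPPA and PPP1CB, named below, had 1 probe set each, low in most sources. PPP1CB averaged 3.50 to 5.88 outside TA31. That these probe sets read the genes they are annotated to was not checked against sequence. KLHDC8A, a kelch-repeat protein (chromosome 1), had 8.60, 8.69 and 8.67 in TA31, against 6.58 (lowest), 6.79 (median) and 6.92 (highest) in the sister arrays. PIPOX, a peroxisomal enzyme that breaks down pipecolic acid (chromosome 16), had 6.98, 6.76 and 7.04 in TA31, against 5.04 (lowest), 5.24 (median) and 5.40 (highest). For KLHDC8A and PIPOX the 4 sisters were close to each other, and TA31 lay above the nearest by 1.83 and 1.62. EPB41L4A, a FERM domain protein of the membrane skeleton (chromosome 6), had 8.75, 8.91 and 8.79 in TA31, against 6.08 (lowest), 7.23 (median) and 7.42 (highest) in the sister arrays. The second probe set of KLHDC8A lay 0.42 above the nearest sister and that of EPB41L4A 0.03 above.

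The remaining genes lay nearer the limit and were named after their values were seen. They were RNF128, a ubiquitin ligase (1.46 above the nearest sister), ABHD12B, a hydrolase of the ABHD family (1.38), NOX4, an oxidase that makes hydrogen peroxide (1.21), PPP1CB, a catalytic subunit of protein phosphatase 1 (1.08), SYT17, a synaptotagmin relative (1.05), together with FAM221A (1.15), DEPDC7 (1.03) and PHYHIPL (1.02). RNF128, ITGB8, ABHD12B, SLC10A4, SERPINA5, NOX4, PENK and TRPC4 were likewise outside the naming rule. LOC713067, for which the annotation gives no gene name, was the last inside the limit, with 10.04, 10.43 and 10.18 in TA31 against 9.18 and 9.25 in TB31, and with TB31c kept it was no longer called. Just outside were ATL1 at 0.99 and NIBAN1 at 0.98. Over the 33 genes the highest limma adjusted p was 0.00688, for DEPDC7. Of the 33, 18 had more than 1 probe set, and the brightest other one lay at least 1 above every sister for 3, above by less for 9, and not above for 6. Besides those already given, the other probe set lay at −0.11 for LOC713067 and −0.20 for ABHD12B.

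TC31 was the nearest sister for 15 of the 33 genes, TE31 for 8, TB31 for 7 and TD31 for 3. The array TA31b was the highest of the TA31 arrays for 23 of them. Its correlation over genes was 0.992 with TA31a and 0.994 with TA31c, while TA31a and TA31c reached 0.998. Without TA31b, 26 genes were called higher, 25 of them among the 33, and 10 lower. DEPDC7, FAM221A, LOC713067, NOX4, PENK, PHYHIPL, PPP1CB and TRPC4 then lay 0.791 to 0.976 above the nearest sister, under the limit. Leaving out TA31a or a single sister array also took SYT17, PHYHIPL, PENK, DEPDC7 and LOC713067 under it, with values of 0.907 to 0.984.

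Of the 7 genes lower in TA31, KLHL41, a kelch protein of the sarcomere (chromosome 12), had the largest difference. Its log2 signal was 4.48, 4.71 and 4.72 in TA31, against 8.14, 8.05 and 7.91 in TC31, 8.82 to 9.26 in TE31, and 10.19 to 11.07 in TB31 and TD31. All sisters were high, and TA31 was near the ESC line C3106 at 4.03. The difference from TC31 was −3.40 (SE 0.12, limma adjusted p = 5.14e-11), and a second probe set gave −0.63. SMPX, a small protein of skeletal and heart muscle (chromosome X), had 3.71, 3.61 and 3.85 in TA31, below every sister array. It had 4.81 to 5.62 in TC31 and TE31, and 8.88 to 9.26 in TB31 and TD31. The smallest difference was −1.40, from TC31 (SE 0.14, limma adjusted p = 3.38e-06). SNTB1, a syntrophin of the dystrophin complex (chromosome 8), had 8.28, 8.47 and 8.31 in TA31, against 9.29 (lowest), 9.70 (median) and 9.90 (highest) in the sister arrays, and its other probe sets gave −1.06 and −0.10. SNTB1 was at the limit with −1.01 from TC31, and at −0.969 to −0.998 it was not called without TA31a, TA31c, TC31a or TC31c.

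The other 4 genes were CLIC2, ADH7, EPAS1 and C1S. CLIC2, an intracellular chloride channel protein (chromosome X), had 5.20, 5.73 and 5.56 in TA31, against 7.32 (lowest), 8.13 (median) and 9.77 (highest) in the sister arrays. It was nearest to TB31, at −1.91 (SE 0.17, limma adjusted p = 1.83e-06). ADH7, an alcohol dehydrogenase that also oxidises retinol (chromosome 5), had 3.90, 4.40 and 4.17 in TA31, against 5.32 (lowest), 6.70 (median) and 8.64 (highest). EPAS1, the hypoxia-inducible factor HIF-2 alpha (chromosome 13), had 9.51, 9.29 and 9.41 in TA31, against 10.70 (lowest), 11.01 (median) and 11.45 (highest) in the sister arrays. EPAS1 was −1.34 from TB31 (SE 0.10, limma adjusted p = 3.68e-07), with 0.01 on its second probe set. C1S, a serine protease of the complement cascade (chromosome 11), had 7.77, 7.66 and 7.52 in TA31, against 8.59 (lowest), 9.03 (median) and 9.77 (highest), and was −1.13 from TE31 (−0.996 without TE31a, when it was not called). C1S, CLIC2 and ADH7 lay −0.64, −0.69 and −0.68 from the nearest sister on their second probe set. Just outside the limit were IFITM1, an interferon-induced membrane protein, at −0.99, and SELENOP, a secreted selenium carrier, at −0.96.

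The muscle genes were read sister by sister, since the sisters differ among themselves. Of 26 measured skeletal muscle genes none was called against every sister, and by the unadjusted count 1 was lower and 0 higher, where 0.885% and 1.73% of all genes were. Against TB31, 16 of the 26 (61.5%) were lower in TA31, where 0.934% of all genes were, and against TD31 15 (57.7%) were lower, where 1.92% of all genes were. Against TC31 3 were lower and 1 higher (1.3% and 1.13% of all genes), and against TE31 1 was lower and 3 higher (2.08% and 2.76% of all genes). The mean signal of the list was 6.38 to 6.42 in TA31, 8.67 to 8.69 in TB31, 6.65 to 6.66 in TC31, 8.39 to 8.45 in TD31 and 6.26 to 6.29 in TE31. TA31 thus lay with TC31 and TE31. With the array labelled TB31c kept, 4 genes of the list were lower than in TB31, and 0 lower than in TC31 or TE31.

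MYH3, the embryonic myosin heavy chain, had a log2 signal of 4.49, 4.43 and 4.40 in TA31, against 12.25 and 12.12 in TB31, 11.72, 11.91 and 11.77 in TD31, 7.43, 7.56 and 6.75 in TC31, and 4.41, 4.77 and 4.36 in TE31. It was −7.74 from TB31 (SE 0.18, limma adjusted p = 6.85e-13) and −0.08 from TE31 (adjusted p = 0.737). MYF5, a determination factor of muscle precursors, had 3.69, 3.78 and 3.57 in TA31, against 8.17 and 8.63 in TB31, 9.37 to 9.53 in TD31, 3.88 to 4.17 in TC31 and 3.54 to 3.63 in TE31. ACTC1, the cardiac actin that embryonic muscle also makes, lay between the sisters. It had 10.18, 10.33 and 10.22 in TA31, against 12.45 to 12.74 in TB31 and TD31, 8.58 to 8.82 in TC31 and 7.52 to 7.73 in TE31. KLHL41, SMPX and SNTB1 were called lower in TA31 than in every sister, SNTB1 at the limit with −1.01 from TC31. What part a muscle cell population in TB31 and TD31 has in the values of these 3 genes was not tested.

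**Figure D4:**
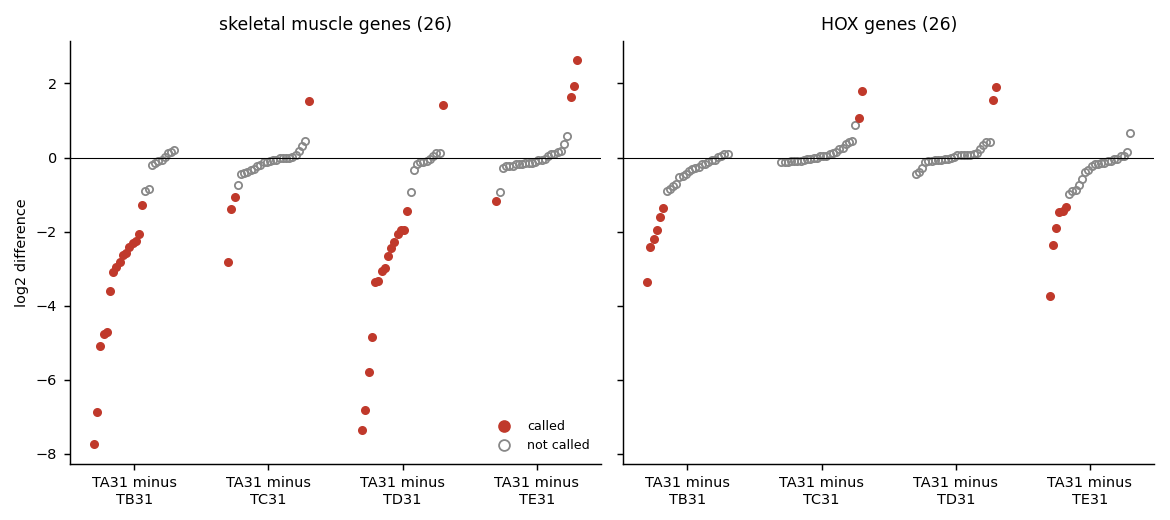
Log2 difference (y axis) of each of 26 skeletal muscle genes (left) and 26 HOX genes (right), TA31 minus each sister (x axis). Filled red points passed the limma limits in that comparison; of the 26 muscle genes 16 were called lower than in TB31, 15 than in TD31, 3 than in TC31 and 1 than in TE31, while the called HOX genes are lower than in TB31 and TE31 and higher than in TC31 and TD31.

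HOX genes encode transcription factors that mark position along the body axis, and fibroblasts keep their pattern in culture. None of 26 measured HOX genes was called against every sister, and by the unadjusted count 0 were lower and 0 higher, where 0.885% and 1.73% of all genes were. Against TB31 6 were lower in TA31 and against TE31 6 were lower, 23.1% of the list each, where 0.934% and 2.08% of all genes were. Against TC31 and TD31 2 were higher each (7.69% of the list, with 1.13% and 2.35% over all genes). HOXA9 had 6.01, 6.45 and 6.10 in TA31, against 9.56 and 9.51 in TB31, 10.02, 9.99 and 9.78 in TE31, 4.35, 4.51 and 4.30 in TC31, and 4.61, 4.32 and 3.92 in TD31. TA31 lay between these pairs of sisters without overlap, −3.35 from TB31 (limma adjusted p = 2.66e-09) and 1.80 from TC31 (limma adjusted p = 5.98e-07). HOXC6 ran the same way, with 7.99, 8.16 and 8.07 in TA31, 10.15 to 10.62 in TB31 and TE31, and 6.38 to 7.11 in TC31 and TD31.

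Of the 36 gene lists, 10 had a member called against every sister and 26 had none, where 0.234% of all genes were called higher and 0.0495% lower. The lists overlap, and SOX2, PAX6 and CCL2 each count in more than a single list. The lists and the markers SOX2, PAX6, BEND4 and PCDH8 were chosen with earlier results known, so the count is not a separate result. Fibroblast matrix genes, 40 of them measured, had none called, and by the unadjusted count 2 were higher and 2 lower, where 1.73% and 0.885% of all genes were. The mean signal of the matrix list was 11.28 to 11.40 in TA31 and 11.20 to 11.56 in the sisters. SOX2 was the only called gene of 13 core pluripotency genes, of 15 SOX genes, and PAX6 of 7 PAX genes. In the core pluripotency list, SOX2 included, the mean signal was 6.90 to 6.99 in TA31 and 6.43 to 6.77 in the sisters. Its median difference from the sister mean was −0.012.

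When the culture was taken as the unit, 1 gene passed. TA31, a single mean, was set against the mean of the 4 sister means, and was assumed to vary like them. The residual spread came from the sisters alone (3 residual degrees of freedom). Limma moderated that spread towards the one of all genes (1.95 prior degrees of freedom). PCDH8 was higher by 4.99 (SE 0.11, limma adjusted p = 0.00147), which is 0.00708% of all genes, and 0 genes were lower. At an unadjusted p under 0.05, 165 genes (1.17%) were higher and 59 (0.417%) lower. KLHDC8A, GMPPA, PIPOX and BEND4 came next, with limma adjusted p = 0.0877, 0.101, 0.127 and 0.128. SOX2 and PAX6 differed from the sister mean by 4.71 (SE 1.32) and 4.02 (SE 1.21), with limma adjusted p = 1.00 for both. The SD between the sister means was 1.52 for SOX2 and 1.38 for PAX6, against 0.0494 for PCDH8. All sister signals of PCDH8 were near the bottom of the signal range, where little spread can show.

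The called genes were then read in the other sources, which share the TA31 arrays with the comparison above. In a limma fit over 36 arrays of all 13 sources, 9 genes (0.0637%) were higher in TA31 than in each of the 10 other fibroblast cultures, and 0 were lower (64 and 12 at an unadjusted p under 0.05, whatever the size). They were PCDH8 (3.45 above its nearest, TA38, at 5.15), GMPPA (1.95), BEND4 (1.84), MMP13 (1.66), ABHD12B (1.38), SLC9A5 (1.12), PPP1CB (1.08), RNF128 (1.05) and DEPDC7 (1.03). The highest limma adjusted p among them was 0.000520, for DEPDC7. Without TA31b 6 genes were called. Against every 3806 teratoma culture 29 genes (0.205%) were higher in TA31, 10 of them among the 33, and 12 (0.0849%) were lower. Against every skin culture 230 (1.63%) were higher and 148 (1.05%) lower.

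SOX2 and PAX6 were not among the 9, since the 3806 cultures had them too. SOX2 averaged 10.33 in TA31, against 9.37 in TA38, 10.90 in TB38 and 8.94 in TC38, and 4.33 to 4.55 in skin. PAX6 averaged 10.29 in TA31, against 11.05 in TA38, 9.58 in TB38 and 8.87 in TC38, and 4.54 to 4.97 in skin. TA31 lay within the range of the 3806 cultures for both. NFE2L3 lay between 6.88 and 7.10 in the TA31 arrays, against means of 6.32 to 6.60 in the 3806 cultures and 3.43 to 3.62 in skin. KLHDC8A averaged 8.65 in TA31 and 8.43 in TB38 (limma adjusted p = 0.566), and PIPOX averaged 6.92 in TA31 and 7.64 in TB38, above TA31. CCL2 averaged 11.36 in TA31, 11.70 in TA38 (limma adjusted p = 0.146), 11.07 in TB38 (limma adjusted p = 0.206) and 9.64 in TC38. MECOM averaged 7.55 in TA31 and 7.85 in TA38, and PHYHIPL 8.56 in TA31 and 9.70 in TB38. Of the 33 genes, 20 had a higher mean in TA31 than in all 3806 cultures. DMRTA2 was higher in 2 skin cultures than in TA31. It averaged 7.48 in TA31, against 8.66 in M032 (limma adjusted p = 2.61e-07), 7.99 in M106p1 (limma adjusted p = 0.0195) and 5.95 in M088. In the 3806 cultures DMRTA2 averaged 5.55 to 5.66. For KLHL41, TA31 averaged 4.64, against 5.23 in TC38, 8.33 in TB38, 9.52 in TA38 and 8.61 to 11.02 in skin. SMPX averaged 3.73 in TA31, against 3.99 in TC38, 6.71 in TB38, 7.88 in TA38 and 8.13 to 8.71 in skin. SNTB1 averaged 8.35 in TA31, against 8.26 in TC38, 7.99 in TB38 and 9.21 in TA38. In skin SNTB1 averaged 8.06 in M032, 8.95 in M088 and 9.62 in M106p1.

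**Figure D5:**
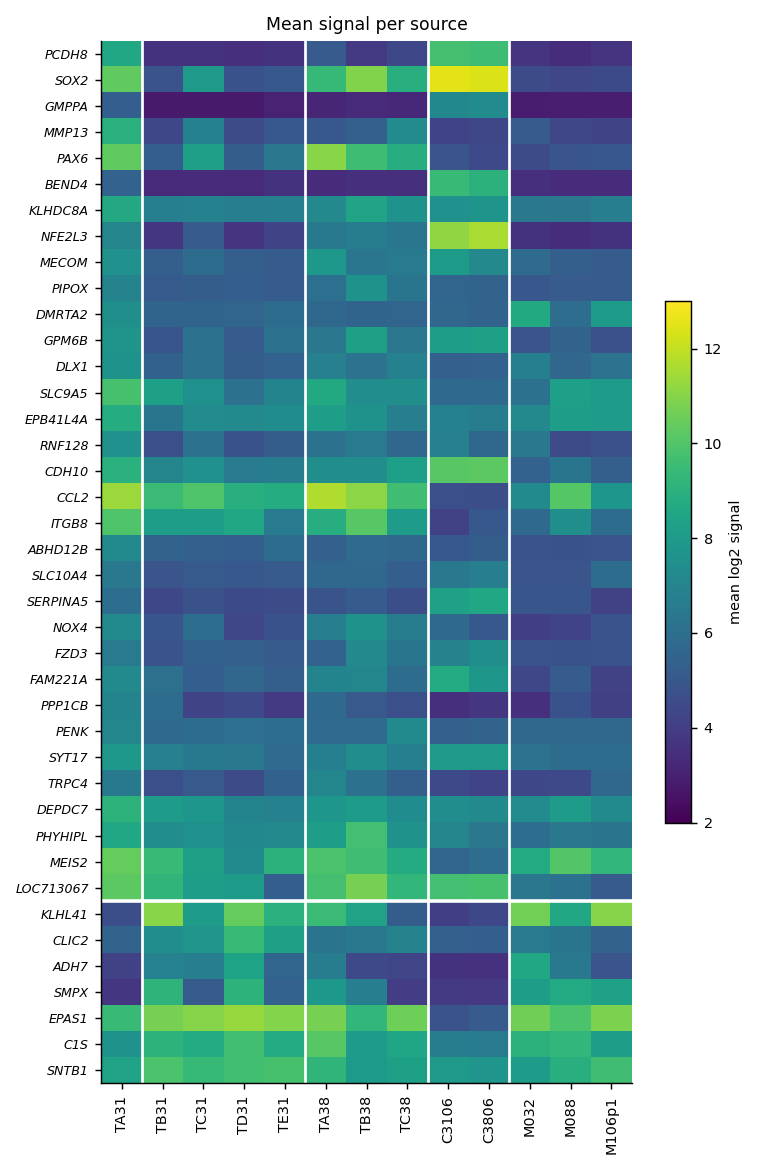
Mean log2 signal (colour scale) of the 40 called genes (rows) in the 13 sources (columns), TA31 first, then its sisters, the 3806 teratoma cultures, the ESC lines and skin fibroblasts, without the 3 arrays that went against their labels. Genes above the thick white line are higher in TA31 than in every sister, those under it lower. Along their rows PCDH8, GMPPA and BEND4 have higher means in TA31 and the ESC lines than in every other fibroblast culture. The same order of means, by smaller differences, is seen in CDH10, NFE2L3, SERPINA5, SLC10A4, SYT17 and FAM221A.

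In the parent line C3106, 13 of the 33 genes had a higher mean than in TA31 and 20 a lower one. PCDH8 averaged 8.59 in TA31 and 9.75 in C3106, with C3106 arrays at 9.92, 11.01 and 8.33. BEND4 averaged 5.47 in TA31 and 9.43 in C3106, GMPPA 5.29 in TA31 and 7.12 in C3106, CDH10 9.03 in TA31 and 10.15 in C3106, and SOX2 10.33 in TA31 and 12.54 in C3106. PAX6 and MMP13 ran the other way, with PAX6 at 10.29 in TA31 and 4.90 in C3106 and MMP13 at 8.99 in TA31 and 4.21 in C3106. Higher in TA31 than in every other source, ESC lines included, were 5 genes (0.0354%), namely ABHD12B, DEPDC7, MMP13, PPP1CB and SLC9A5. Of the ESC markers, POU5F1, EPCAM, LIN28B and DPPA4 in TA31 were within the range of the sister means, as was DNMT3B at 6.93 (sister means 6.52 to 7.58). What part ESC carry-over has in the PCDH8, BEND4 and GMPPA values was not tested beyond these markers.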

How the data were processed

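RNA of 39 rhesus macaque samples from 13 sources was measured on single-colour arrays read as probe sets. The deposited table holds log2 signals, made by the authors with GCOS and RMA per the submitters' processing notes, with versions not given in the sources used here. RMA corrects background, equalises the arrays' distributions and summarises probes. Values ran from 2.11 to 14.18 and array medians from 6.25 to 6.48. The number of arrays and cultures limits the precision.

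The platform annotation names 1 gene for 24956 non-control probe sets, covering 14132 genes. Where a gene had several, its brightest one by mean signal was used. Chromosomes came from the RefSeq gene table of T2T-MMU8v2.0. The 5 cultures of line 3106 (14 arrays, TB31c left out) entered a limma 3.58.1 model (R 4.3.3) with 4 contrasts, TA31 minus each sister, two-sided, Benjamini-Hochberg adjusted over all genes. A call needed an adjusted p under 0.05 and a log2 difference of at least 1 in all 4. These p-values measure the spread between arrays of a culture. A second fit used culture means, and another, added after the data were seen, used 36 arrays of all sources. All fits were tested on simulated data.

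Genes named were the 15 with the largest difference each way whose TA31 arrays all lay outside the sister arrays, the 4 markers, up to 6 called members of each of 36 lists, genes at the limits, and those called on culture means; others are said to be chosen later. The members, markers and lists were chosen with earlier results of these data known. Deviations of same-letter arrays of different cultures had correlations of −0.505 to 0.566 (median −0.026 over 26 pairs). Other-letter arrays had −0.581 to 0.525 (median 0.010 over 52 pairs). The pairs are not independent, so these values cannot exclude a batch shared by some arrays. Letters were not used to pair the arrays in the main fit. Alternatives covered the probe set, filter, scaling, limit, spread, arrays and cultures left out.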

Additional observations from a re-analysis of the deposited data

Results flagged for a closer look

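For 4 of the 44 named genes, 1 sister culture stood apart from the other 3 in a test of the gap to its neighbour, where chance alone marks about 1 in 20 groups. The share over all genes is not given, and most named genes were picked by their differences from these sister means. The count is therefore not a result about these genes, and only the values are listed. SOX2 averaged 7.90 in TC31 and 4.78 to 5.02 in the other sisters. MECOM averaged 5.87 in TC31 and 5.22 to 5.32 in the other sisters. GMPPA averaged 3.06 in TE31 and 2.78 to 2.81 in the other sisters. EPB41L4A averaged 6.26 in TB31 and 7.23 to 7.34 in the other sisters. In SOX2, MECOM and GMPPA the culture that stood apart was the nearest to TA31, and in EPB41L4A it was the farthest.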

How the results depend on the processing

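The number of genes higher in TA31 than in every sister culture was 33, and 7 were lower. They became 53 higher with the probe set of highest variance and 54 higher with all probe sets (2 on culture means with either), 14 higher and 2 lower at a log2 limit of 1.5, and 4 lower with the spread of 38 arrays, which include M106p1f and C3806c; BEND4, NFE2L3, CCL2, MEIS2, CLIC2, ADH7 and EPAS1 were among those not called in that fit, and with 36 arrays all of these were called, but ITGB8 was not (32 higher and 7 lower). Leaving out one array at a time gave 26 to 34 higher and 6 to 10 lower. Leaving out one sister culture at a time gave 36 to 53 higher and 10 to 31 lower, with the highest counts without TB31, 22 lower without TE31 and 11 lower without TC31; all 33 and all 7 remained called in each of these fits, which ask less of a gene. With TB31c kept, the counts were 33 and 8 (31 and 7 shared). The replicate block gave 33 and 7, the same genes. On culture means 1 gene was higher; this became 2 without TC31, 3 with the spread of 11 fibroblast cultures (3 also without M106p1f), and 40 higher and 5 lower with arrays fitted and culture as a random block. With all 39 arrays 1 gene was lower than in all 10 other fibroblast cultures, where 0 were with 36. On the brightest other probe set the difference from the nearest sister changed sign for DMRTA2 (−0.081), SLC9A5 (−0.086), LOC713067 (−0.11), ABHD12B (−0.20), ITGB8 (−0.31), SERPINA5 (−0.35) and EPAS1 (0.013); the cause was not tested. Signals near the table's floor, as of GMPPA in the sisters, limit the size of a difference.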

Other observations

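Of 19 cytokines and chemokines, 3 were lower in TA31 than in every sister at an unadjusted p under 0.05, whatever the size, and 1 higher, where 0.885% and 1.73% of all genes were. IL6, a cytokine of stressed fibroblasts, had 8.72, 9.30 and 8.90 in TA31, against 9.45 and 9.61 in TB31, 11.27 to 11.32 in TC31, 9.60 to 9.96 in TD31 and 12.12 to 12.19 in TE31. All TA31 arrays were below all sister arrays, with differences of −0.56 from TB31 and −3.19 from TE31 (limma adjusted p = 0.0227 and 4.96e-11). CXCL8, a neutrophil chemokine, was −2.79 from TE31 (limma adjusted p = 1.23e-08) and −0.27 from TB31 (limma adjusted p = 0.680). IL33, an alarm cytokine, was 1.77 above TB31 and 1.12 above TE31 but −2.38 from TC31 and −1.43 from TD31, and LIF, a cytokine of the IL6 family, was 1.52 above TD31 (limma adjusted p = 7.10e-09) and 0.13 above TE31 (limma adjusted p = 0.272). CCL2 and IL6 differed in opposite directions between TA31 and every sister.

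Among 16 imprinted genes none was called against every sister. H19, a noncoding RNA of the placenta and fetus, had 13.11, 13.13 and 13.03 in TA31, against 9.86, 9.42 and 9.73 in TE31 and 13.16 to 13.64 in the other sisters. DLK1, an inhibitor of fat cell differentiation, had 8.27, 8.55 and 8.43 in TA31, against 8.24 and 8.44 in TB31, 10.24 to 10.49 in TC31, 10.88 to 11.31 in TD31 and 6.35 to 6.91 in TE31. MEOX2, a homeobox factor of the somites, had 5.50, 5.78 and 5.43 in TA31, against 8.40 to 9.21 in TB31, TC31 and TD31 and 3.53 to 3.95 in TE31. These genes were chosen after their values were seen.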
